A study of Mus musculus with 2 samples.

Results

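Among the peaks of Olig2 chromatin immunoprecipitation and sequencing (ChIP-Seq) in adult mouse spinal cord, 565 were promoter peaks in which none of the 3 most frequent promoter motifs was listed, neither the E-box motif nor the CCAAT-like motif nor the ETS-like motif. They were chosen from the deposited annotation alone, as peaks annotated to a promoter of a protein-coding gene whose listed hits all belonged to the other 17 of the 20 deposited motifs. They made up 37.6% of the 1503 promoter peaks of protein-coding genes and 13.4% of all 4215 peaks, and they lay at 563 genes, since Rap2a and Yif1a had 2 each. The remaining promoter peaks were divided into 481 with the E-box motif, 303 with the CCAAT-like motif and no E-box motif, and 154 with the ETS-like motif and neither of the others.

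Chromatin was immunoprecipitated with an antibody to Olig2 from spinal cords of C57BL/6 males aged 6 weeks, taken whole and pooled for each reaction, and sheared chromatin of the same tissue served as Input Control. The experiments were pooled before peaks were called, so there is 1 list of peaks and no replicate, and tests over its peaks say nothing of the spread between mice. The cord holds neurons, astrocytes, microglia and vessels beside the oligodendrocyte (OL) lineage, and a peak cannot be assigned to a cell type. The Input Control was not analysed here.

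Olig2, of the bHLH (basic helix-loop-helix) family of transcription factors, directs the formation of OL precursors and their differentiation, and bHLH proteins bind the E-box, CANNTG. Many promoters of broadly expressed genes lie in CpG islands, stretches rich in G, C and the dinucleotide CpG, and carry short words for general factors: GC boxes for Sp and KLF proteins, cyclic AMP response elements for CREB and ATF proteins, E2F sites at genes of the cell cycle, and NRF1 and Staf (Zfp143) sites. A word in a peak does not show which protein was bound there.

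In the deposited list the most frequent word of the E-box motif is CAGCTGCT, that of the CCAAT-like motif TGATTGGC and that of the ETS-like motif GGAAGCGGAAGT. The other 17 motifs were spread over the 565 peaks with no motif in the majority. Named by its most frequent deposited word, GCGCGTGC (Motif50) was listed in 76 peaks, CAATATGG (Motif52) in 71, TGGTCCCGCC (Motif20, similar to an E2F site) in 71, CACCGCCC (Motif51) in 59, GGGGCGGAGC (Motif3, a GC box) in 51, TCTCGCGA (Motif47) in 49 and ACTACATTTCCC (Motif24, similar to a Staf site) in 46. The other 10 motifs were each listed in 12 to 39 peaks. A single motif was listed in 472 peaks, 2 motifs in 87, 3 in 5 and 4 in 1.

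Sequences of promoter peaks that carry the words the results turn on are shown here, in GRCm38 (mm10). The hit of the named motif, or its overlapping hits, is in capitals, and hits of other listed motifs are not marked. Peaks that overlap an annotated exon, 315 of the 565, were not printed, and the examples were chosen after their values were seen. Rpia, which encodes ribose 5-phosphate isomerase A, had the highest score of those shown, and Nkiras1 has the same motif on the other strand. Dhx35, an RNA helicase, holds the most frequent word of Motif52, and Add3 has a variant of that word on the other strand. Klhl25 has a variant of TCTCGCGA, the most frequent word of Motif47.
Rpia (Motif24, chr6:70792285-70792335, plus strand): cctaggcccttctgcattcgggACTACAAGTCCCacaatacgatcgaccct
Nkiras1 (Motif24, chr14:18271060-18271110, plus strand): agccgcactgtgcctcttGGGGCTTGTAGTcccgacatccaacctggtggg
Dhx35 (Motif52, chr2:158794635-158794685, plus strand): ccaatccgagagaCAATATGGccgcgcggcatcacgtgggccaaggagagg
Add3 (Motif52, chr19:53142481-53142531, plus strand): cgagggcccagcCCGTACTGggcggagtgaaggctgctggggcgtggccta
Klhl25 (Motif47, chr7:75848226-75848276, plus strand): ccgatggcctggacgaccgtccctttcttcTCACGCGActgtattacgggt

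GC-rich words are shown by the next 8 peaks. Lsm14b and Wdr77 carry a GC-rich hit of Motif3 and a GC box of Motif27, and Kpna3 and Cdr2l carry the E2F-like motif on opposite strands. The hit of Hexim1 holds GCATGCG, as NRF1 sites do, and Clptm1l has hits on both strands that overlap in the palindrome TGACGTCA of the cyclic AMP response element.
Utp14a (Motif50, chrX:48256795-48256845, plus strand): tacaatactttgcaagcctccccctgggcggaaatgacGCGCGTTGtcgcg
Kpna3 (Motif20, chr14:61440049-61440099, plus strand): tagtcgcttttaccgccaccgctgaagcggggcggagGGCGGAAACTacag
Cdr2l (Motif20, chr11:115381796-115381846, plus strand): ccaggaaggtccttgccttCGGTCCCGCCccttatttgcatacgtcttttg
Myorg (Motif51, chr4:41503208-41503258, plus strand): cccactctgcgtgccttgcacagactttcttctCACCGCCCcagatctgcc
Lsm14b (Motif3, chr2:180024833-180024883, plus strand): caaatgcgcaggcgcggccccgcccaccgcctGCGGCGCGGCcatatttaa
Wdr77 (Motif27, chr3:105959327-105959377, plus strand): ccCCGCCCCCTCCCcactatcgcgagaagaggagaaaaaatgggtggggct
Hexim1 (Motif14, chr11:103116161-103116211, plus strand): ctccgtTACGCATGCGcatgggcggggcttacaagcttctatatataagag
Clptm1l (Motif25, chr13:73603920-73603970, plus strand): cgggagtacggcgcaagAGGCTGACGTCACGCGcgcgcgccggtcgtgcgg

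Some peaks of the class held an E-box or CCAAT within their listed hits, as those of Cdk4 and Gcsh did. The peak of Gcsh holds ATTGG, the reverse complement of CCAAT, within a hit of Motif23, and the peak of Cdk4 holds the E-box CACGTG within Motif36. The peak at the promoter of Olig2 itself holds TTCCCGCC within Motif20.
Gcsh (Motif23, chr8:116993610-116993660, plus strand): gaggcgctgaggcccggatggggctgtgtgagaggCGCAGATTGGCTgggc
Cdk4 (Motif36, chr10:127063334-127063384, plus strand): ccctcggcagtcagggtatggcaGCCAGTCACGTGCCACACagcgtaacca
Olig2 (Motif20, chr16:91225465-91225515, plus strand): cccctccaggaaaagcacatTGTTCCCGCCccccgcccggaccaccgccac

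The label of GC-rich motifs was therefore borne out in part. Averaged over all their deposited hits, 15 of the 17 motifs had at least 60% G and C, but words of ACTACATTTCCC (Motif24) averaged 48.0% and those of CAATATGG (Motif52) averaged 54.1%. Of the 565 peaks, 116 held one of these 2 motifs and 449 held neither. For this reason the peaks are called here promoter peaks with none of the 3 motifs.

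As a consequence of the rule these peaks held few E-boxes, and their letters are given as a description. CANNTG, searched on both strands in the 51 bp of the peak, was present in 64 of 565 promoter peaks with none of the 3 motifs (11.3%) and in 275 of 481 with the E-box motif (57.2%). In 17492 promoters of RefSeq, 51 bp centered on -67 bp from the start, the median place of the class, held it in 17.8%. Of the 64, CACGTG was found in 23, CAACTG in 12, CACCTG in 10 and CAGCTG, the form most frequent in the E-box motif, in 1. A peak can contain more than 1 form.

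Words of general promoter factors were each in a minority of the peaks. The GC box core GGGCGG was in 30.6% of promoter peaks with none of the 3 motifs and in 19.4% of RefSeq promoter windows. TGACGTCA was in 3.36% and in 0.652% of the windows, CTCGCGAG in 2.65% and 0.297%, TTCCCGCC in 2.83% and 0.640%, and ACTACA in 6.73% and 2.26%. CATGCGCA, the core of NRF1 sites, was in 1.59% and 0.703%. CCAAT ran the other way, with 8.85% of the peaks and 14.5% of the windows. This did not hold in the flanks, from the edge of the peak to 100 bp from its center. There CCAAT was in 30.1% of the class and in 21.4% of RefSeq promoters. Words were searched on both strands, and TTCCCGCC can overlap the GC box on the other strand. The listed motifs by which the peaks were grouped cover the same letters. The rule left out the CCAAT-like motif and required a hit of another motif, which favors the directions seen in the 51 bp against unselected windows. The shares are therefore given as a description.

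Median GC content was 66.7% in promoter peaks with none of the 3 motifs (quartiles 60.8% and 70.6%), 64.7% in those with the E-box motif, 58.8% with the CCAAT-like motif and 64.7% with the ETS-like motif. Median CpG content, the share of dinucleotides that are CpG, was 10%, against 6%, 6% and 10% in the same 3 groups. Only 3 of the 565 peaks held no CpG, against 24 of the 481 with the E-box motif. The motif hits by which the peaks were grouped lie in the same 51 bp and help to set both contents. These values are therefore given as a description.

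Peak scores of the class were below those of promoter peaks with the E-box motif. The peak score is the strength the peak caller gave to each peak, and its scale is not named, so scores are read only against each other. The scores had a median of 9.83, quartiles of 6.71 and 14.8, and a range of 2.06 to 87.0. Medians were 12.3 in promoter peaks with the E-box motif, 10.9 with the CCAAT-like motif and 10.2 with the ETS-like motif. The 565 peaks took 246 distinct scores, and 517 shared their score with another peak of the list, so ranks within ties have no meaning.

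A score of at least 20 was reached by 90 of 565 promoter peaks with none of the 3 motifs (15.9%, 95% exact interval 13.01 to 19.2), against 24.8% of all peaks and 19.4% of all promoter peaks. With the E-box motif 125 of 481 reached it (25.99%), and the odds ratio was 0.540 (95% interval 0.398 to 0.731, Fisher's exact test, adjusted p = 0.000675). With the CCAAT-like motif 52 of 303 (17.2%) reached it, an odds ratio of 0.915 (0.629 to 1.33, exact test, adjusted p = 0.872), and with the ETS-like motif 24 of 154 (15.6%), an odds ratio of 1.03 (0.629 to 1.68, exact test, adjusted p = 1). All tests are two-sided Fisher's exact tests over peaks, and adjusted p-values of this kind are over the 21 comparisons of 7 properties with 3 groups, by the method of Benjamini and Hochberg. With a limit of 40 the odds ratio against the E-box motif was 0.497 (0.259 to 0.955) and was not called (exact test, adjusted p = 0.108).

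The comparison with the E-box motif was repeated within tertiles of the GC content of the 51 bp. CpG content and flanks were not matched. In the lower tertile of the GC content of the class, at most 62.7%, a score of at least 20 was reached by 50 of 233 promoter peaks with none of the 3 motifs (21.5%) and by 55 of 238 with the E-box motif (23.1%), an odds ratio of 0.909 (0.589 to 1.40, exact p = 0.740). In the middle tertile it was reached by 24 of 177 (13.6%) and by 43 of 133 (32.3%), an odds ratio of 0.328 (0.187 to 0.577, exact p = 8.72e-05). In the upper tertile, above 68.6%, it was reached by 16 of 155 (10.3%) and by 27 of 110 (24.5%), an odds ratio of 0.354 (0.180 to 0.695, exact p = 0.00235). These strata were chosen after the data were seen, their p-values are unadjusted, and a difference between strata was not tested.

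**Figure D1:**
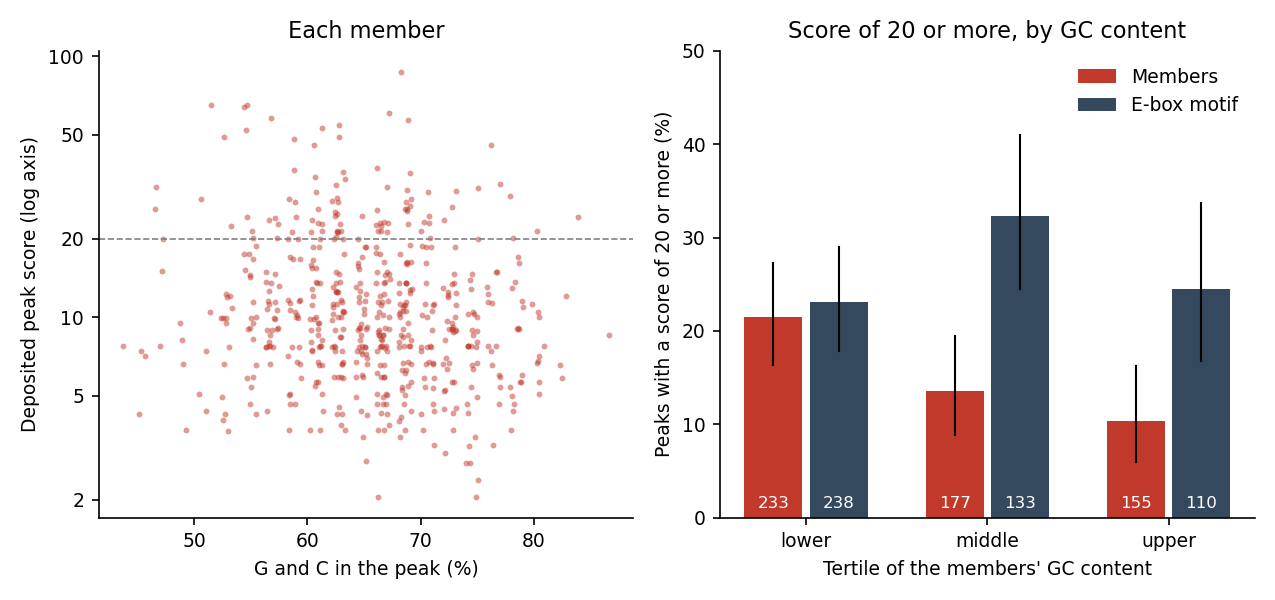
Left, the peak score (log axis) of each of the 565 promoter peaks with none of the 3 motifs against the percentage of G and C in its 51 bp, with a small sideways jitter and a dashed line at a score of 20. Right, the percentage of peaks with a score of at least 20 in tertiles of that GC content, for promoter peaks with none of the 3 motifs (red) and with the E-box motif (dark), with 95% exact intervals and the number of peaks in each bar. In the upper tertile the share was 10.3% among peaks with none of the 3 motifs and 24.5% among peaks with the E-box motif.

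Within the class, GC-rich peaks scored lower. A score of at least 20 was reached by 10.3% of the upper tertile of GC content and by 21.5% of the lower tertile, an odds ratio of 0.421 (0.230 to 0.771, exact test, adjusted p = 0.0110 over 2 comparisons). Median scores were 8.59 in the upper, 9.14 in the middle and 10.5 in the lower tertile. For CpG content it was reached by 16 of 133 in the upper tertile (12.0%) and by 49 of 250 in the lower tertile (19.6%), an odds ratio of 0.561 (0.305 to 1.03, exact test, adjusted p = 0.0642). The words of Motif52 averaged 54.1% G and C. Without the 71 peaks that held this motif, the shares by GC content were 15 of 145 (10.3%) and 33 of 191 (17.3%). The odds ratio of 0.552 (0.288 to 1.06) no longer passed (exact test, adjusted p = 0.168).

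CAATATGG (Motif52) was, of the 14 motifs with at least 20 peaks, the 1 whose peaks differed in score from the rest. Of its 71 peaks, 21 scored at least 20 (29.6%), against 69 of the 494 without it (13.97%), an odds ratio of 2.59 (exact test, adjusted p = 0.0455 over 28 comparisons). Its scores had a median of 10.3 and quartiles of 7.66 and 21.4, beside 9.83, 6.71 and 14.8 over the whole class. Within the lower tertile of GC content 17 of 42 peaks with the motif scored at least 20 (40.5%), against 33 of 191 without it (17.3%), an odds ratio of 3.26 (1.58 to 6.70, unadjusted exact p = 0.00173). With a score of 10 as the limit the odds ratio was 1.17 (0.711 to 1.93, exact test, adjusted p = 1) and the difference was not called.

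Peaks with TCTCGCGA (Motif47) had the next largest share of high scores among motifs with at least 20 peaks, 13 of 49 (26.5%), an odds ratio of 2.06 that did not pass (exact test, p = 0.0413, adjusted p = 0.578). Its 49 peaks had a median score of 11.2. At the other end, 5 of 59 peaks with CACCGCCC (Motif51) scored at least 20 (8.47%, adjusted p = 0.915, exact test). None of the 14 motifs passed for the share of peaks upstream of the transcription start site (TSS).

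**Figure D2:**
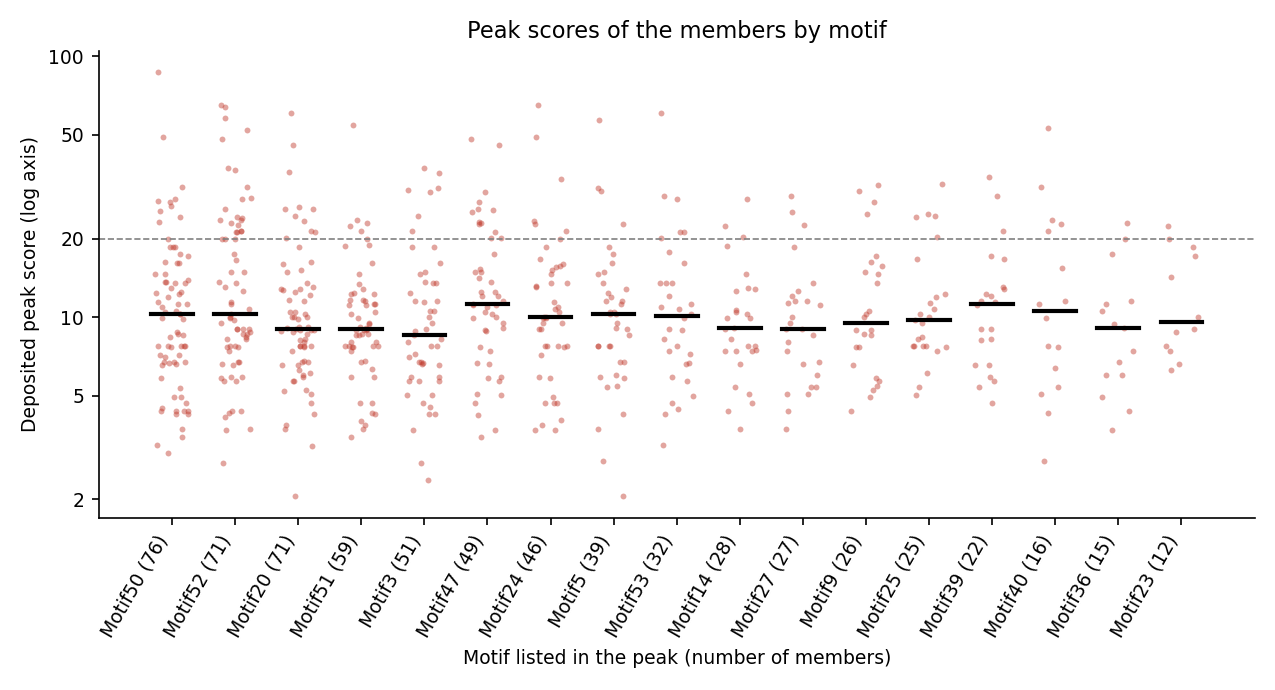
Peak score (log axis) of each promoter peak with none of the 3 motifs, by listed motif, for the 17 motifs, with the number of peaks in brackets, the median as a black bar and a score of 20 as a dashed line. A peak with several motifs is drawn under each. Motif52 has 21 of its 71 peaks at or above 20, and the medians of its peaks and those of Motif50 are the same, 10.3.

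The 15 highest peaks of the class belonged to genes of many functions. The highest, with a score of 87.0 and rank 20 of all peaks, had its center at -48 bp from the TSS of Cxxc1, which encodes a CXXC zinc-finger protein that binds unmethylated CpG and is part of a histone H3 lysine methyltransferase complex. Rpia followed with 65.2, an enzyme of the pentose phosphate pathway, and then Clasp2 with 65.2, a protein that stabilises microtubule ends. Ptbp1, a repressor of neuronal splicing, had 64.1, and Med9, a subunit of the Mediator complex, had 60.7. The peaks of Clasp2, Ptbp1, Psme3ip1 (57.9), Sirt2 (52.3) and Atraid (48.1) held Motif52. The peak of Clasp2 lay at -573 bp, and its flanks had an observed to expected CpG ratio of 0.224, while the flanks of Cxxc1 had a ratio of 1.18. Another promoter peak of Clasp2, with the E-box motif and a score of 14.4, lay 524 bp away.

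The other peaks among these 15 were those of Fdxacb1 (57.1), Chordc1 (54.3), Ppp1r11 (52.9), an inhibitor of protein phosphatase 1, Zfp607b (49.0), Ttll5 (48.9), a tubulin-modifying enzyme, and Ttc7 and Wdr27 (45.7 each). Zfp607b held the Staf-like word ACTACATTTCCC, and Atraid and Wdr27 held TCTCGCGA. The lowest peaks, at 2.06, were those of Get1, a factor for inserting tail-anchored membrane proteins, and Tpm3, a tropomyosin. Of the genes with 2 peaks, Rap2a, a small GTPase, had scores of 25.7 and 5.35 at -708 and -214 bp, and Yif1a, a protein of vesicle transport, had 6.61 and 6.28 at -120 and -580 bp.

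Peaks of the class lay close to the start of transcription, mostly just upstream, but the promoter annotation that chose them bounds the distance. Only 11 of 565 lay over 100 bp downstream. With promoters defined instead by a distance within 1 kb, 466 of 607 were upstream. The places below are therefore partly set by the rule. The median distance was -67 bp (quartiles -150 and -17, range -917 to 438), and 247 of 565 peaks (43.7%) lay 1 to 100 bp upstream, 120 (21.2%) lay farther, up to 200 bp upstream and 84 (14.9%) lay 1 to 100 bp downstream. Leaving out 4 peaks at the TSS itself, 466 of 561 were upstream (83.1%), against 275 of 303 with the CCAAT-like motif (90.8%), an odds ratio of 0.499 (0.319 to 0.781, exact test, adjusted p = 0.00885). With the E-box motif 370 of 480 were upstream (77.1%), which did not pass (odds ratio 1.46, 1.07 to 1.98, exact test, adjusted p = 0.0566), and with the ETS-like motif 126 of 154 (81.8%, odds ratio 1.09, adjusted p = 0.887).

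Closer than 100 bp to the TSS lay 330 of 565 peaks (58.4%), fewer than with the ETS-like motif, 112 of 154 (72.7%), an odds ratio of 0.527 (0.356 to 0.779, exact test, adjusted p = 0.00761). Shares with the E-box motif (56.1%, odds ratio 1.10, 0.858 to 1.40) and the CCAAT-like motif (60.1%, odds ratio 0.934, 0.703 to 1.24) did not pass (adjusted p = 0.735 and 0.872, exact). Within 50 bp the direction against the CCAAT-like motif turned, and the odds ratio of 1.52 (1.13 to 2.06) passed (exact test, adjusted p = 0.0246). In the first 100 bp downstream lay 14.9% of the class and 8.58% of the peaks with the CCAAT-like motif.

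**Figure D3:**
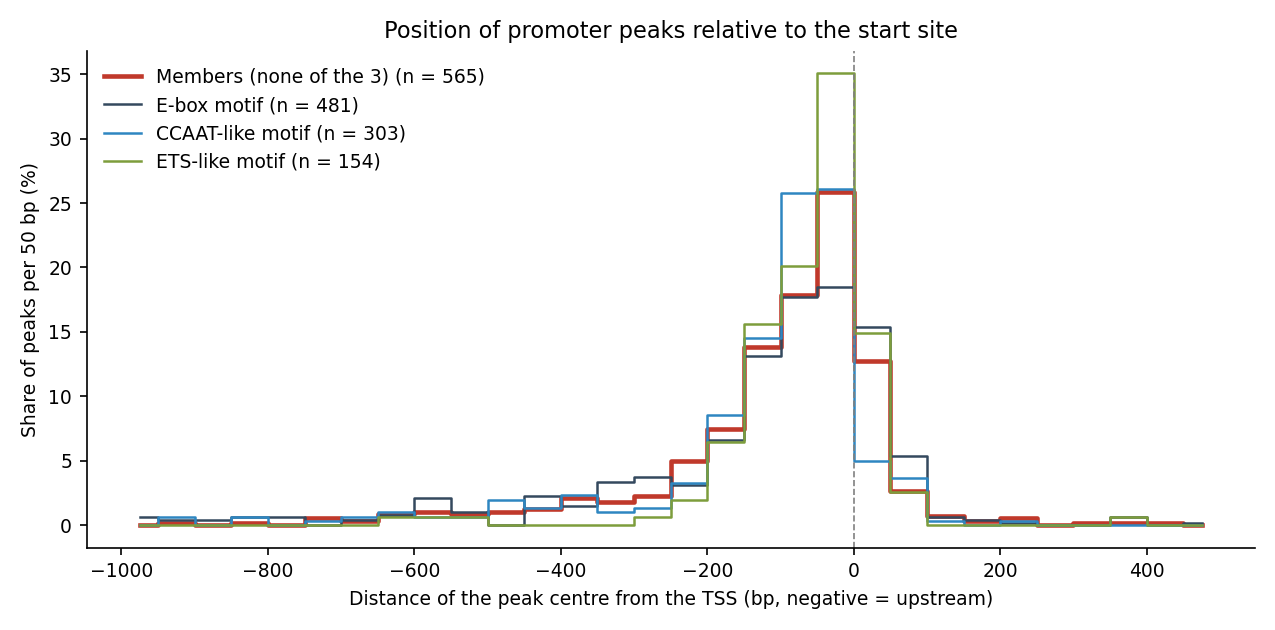
Percentage of promoter peaks in each 50 bp of distance from the TSS (negative, upstream), for the 565 with none of the 3 motifs (thick red), 481 with the E-box motif (dark), 303 with the CCAAT-like motif (blue) and 154 with the ETS-like motif (green). All 4 curves are highest within 100 bp upstream, and the CCAAT-like curve drops at the TSS (dashed line), with 90.8% of its peaks upstream.

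Divergent promoters, where a gene on the opposite strand starts within 1 kb upstream of the start of the nearest gene, held 134 of the 565 peaks (23.7%). The share was 82 of 481 with the E-box motif (17.05%), an odds ratio of 1.51 (1.11 to 2.06, exact test, adjusted p = 0.0318), 18.8% with the CCAAT-like motif (adjusted p = 0.240) and 17.5% with the ETS-like motif (adjusted p = 0.266, both exact). With the class limited to peaks that lack the letters CANNTG, and all 481 peaks with the E-box motif kept, the odds ratio was 1.47. It did not pass (exact test, adjusted p = 0.0627). The partner was a protein-coding gene in 90 pairs and a non-coding gene in 44, and the starts were a median of 152 bp apart. In 81 of the 134 (60.4%) the peak center lay between both starts.

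Several of the named genes had such a partner. The peak of Sirt2, a deacetylase abundant in myelin, lay at -98 bp from the start of Sirt2, and the start of Nfkbib, an inhibitor of NF-kappaB, was 108 bp away. The peak of Psme3ip1 lay in the 215 bp between its start and that of Rspry1, the peak of Ttll5 by Erg28 at 57 bp, that of Med9 by the antisense RNA Med9os at 67 bp, and that of Mcm4, part of the replicative helicase, with a score of 4.94, by the DNA repair kinase gene Prkdc at 44 bp. Such a peak has a single nearest gene in the list, and which of the pair it belongs to cannot be told apart by position.

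Sequence around the peaks was CpG-island-like in most of the class. In 500 bp around the center, without the 51 bp of the peak, at least 50% G and C and an observed to expected CpG ratio of at least 0.6 were found for 511 of 565 peaks (90.4%). The share was 72.6% with the E-box motif, an odds ratio of 3.58 (2.54 to 5.05, exact test, adjusted p = 1.18e-12), 82.8% with the CCAAT-like motif, an odds ratio of 1.96 (1.30 to 2.95, adjusted p = 0.00805), and 94.2% with the ETS-like motif, an odds ratio of 0.587 (adjusted p = 0.345, both exact). With stricter limits, 55% and 0.65, the difference from the CCAAT-like motif was not called (odds ratio 1.24, exact test, adjusted p = 0.364). The 54 peaks outside such sequence had a median score of 11.4, with 14 at 20 or more (25.9%), and the 511 within it had a median of 9.53, with 76 at 20 or more (14.9%), values chosen after the data were seen and given without a test. Among peaks with a score of at least 10, 275 of them in the class, CpG-island-like flanks against the E-box motif still passed, and the other 5 differences called among these comparisons did not.

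CAGCTG was also searched outside the 51 bp. Between the edge of the peak and 100 bp from its center it was found for 57 of 565 peaks (10.1%), against 10.8% with the E-box motif, 14.5% with the CCAAT-like motif and 7.79% with the ETS-like motif. None of these differences passed, with odds ratios of 0.926 (0.622 to 1.38), 0.660 (0.434 to 1.01) and 1.33 (0.693 to 2.54) and adjusted p-values of 0.888, 0.155 and 0.716 in that order (exact tests). The same flanks of RefSeq promoters held it in 7.99%. Whether the signal of a peak came from such a site was not tested.

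Another peak with the E-box motif was listed at the same gene for 64 of 565 peaks (11.3%), against 10.8% with the E-box motif, 8.25% with the CCAAT-like motif and 10.4% with the ETS-like motif. Again none passed, with odds ratios of 1.05 (0.715 to 1.55), 1.42 (0.875 to 2.31) and 1.10 (0.617 to 1.97) and adjusted p-values of 0.929, 0.308 and 0.929 (exact tests). In 36 of the 64 the E-box peak scored higher than the promoter peak. It lay a median of 16036 bp away, in an intron for 32 genes and between genes for 22. Arhgef37, a gene chosen after its values were seen, had a promoter peak of 16.3 and an intronic E-box peak of 73.0 at 1858 bp. Olig2 had a promoter peak of 3.71 at -60 bp, rank 4107 of 4215, and 3 peaks with the E-box motif, the strongest of 18.5 at 20918 bp, which is intergenic.

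**Figure D4:**
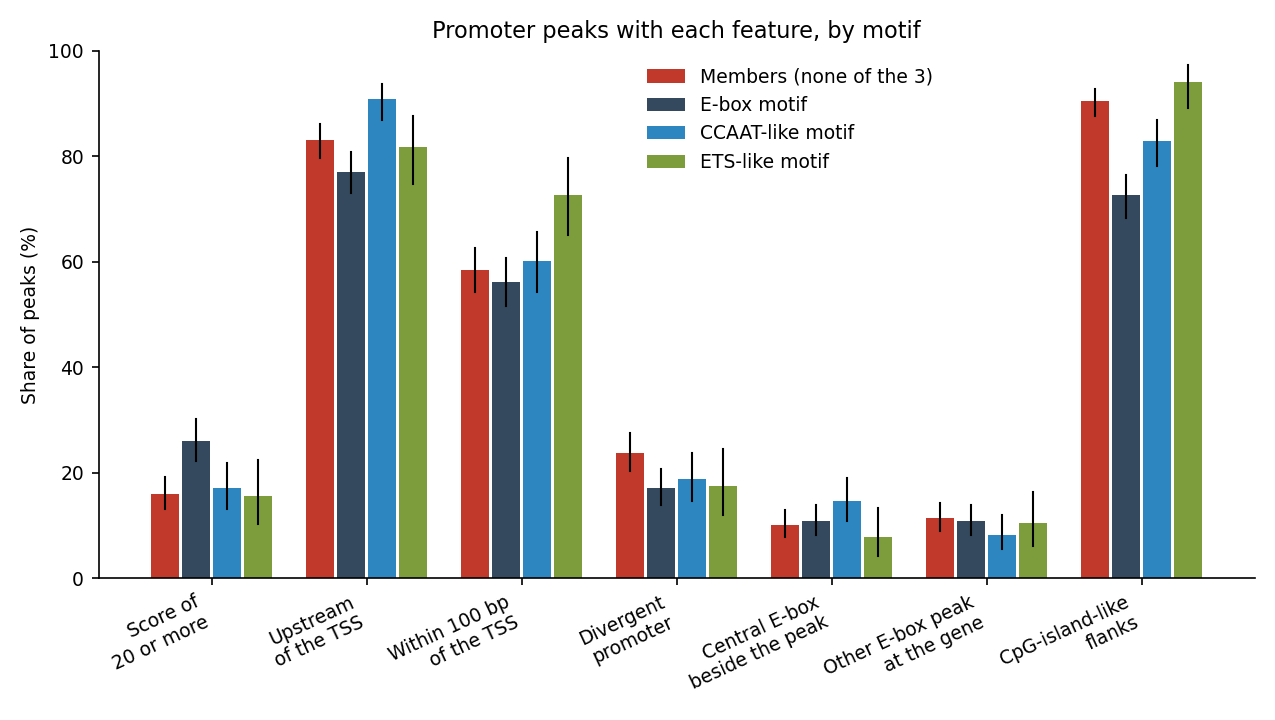
Percentage of promoter peaks with each of 7 properties, for peaks with none of the 3 motifs (red), the E-box motif (dark), the CCAAT-like motif (blue) and the ETS-like motif (green). Bars start at 0, lines are 95% exact intervals, and the central E-box is CAGCTG within 100 bp of the center but outside the peak. The class is below the E-box motif in high scores (15.9% and 25.99%) and above it in CpG-island-like flanks (90.4% and 72.6%).

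By function, the peaks of the class were spread over many groups of genes. Of 21787 protein-coding genes, 563 had such a peak (2.58%), the value against which the lists are read, while 4.25% had another promoter peak. Many of the lists were also above 4.25% for other promoter peaks, so such shares are not particular to the class. No test was made of the lists. The counts rest on the nearest gene, as the study also assigned peaks, and shares of short lists are imprecise.

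Among lists of over 50 genes, translation initiation and RNA processing had the highest shares. Other promoter peaks were found at 10.7% of translation initiation factors and 6.94% of splicing factors and RNA helicases. They were found at 8.33% of cytosolic and 12.8% of mitochondrial ribosomal proteins, beside 4.25% of all genes. Of 173 splicing factors and RNA helicases, 18 had such a peak (10.4%, exact interval 6.28 to 15.9), with a median score of 11.3, among them Hnrnpf (37.2), an RNA-binding regulator of splicing, Dhx35 (28.6) and Lsm14b (24.5). Of 56 translation initiation factors 6 had one (10.7%), with Eif2d at 27.7, Eif1 at 16.1 and Eif4ebp2, an inhibitor of cap-dependent translation, at 14.8. Of 84 cytosolic ribosomal proteins 6 had one (7.14%), Rpl34 with the highest score, 22.4, and of 78 mitochondrial ribosomal proteins 4 (5.13%), Mrpl55 with the highest, 24.1. The tRNA synthetases had 1 of 36, Eprs at 10.6, although 8 of them had another promoter peak.

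Protein turnover and traffic were also represented. Other promoter peaks were found at 12.9% of chaperones, 11.2% of vesicle coats and tethers, and 9.18% of Rab, Arf, Arl and Rap GTPases. That share was 5.41% for autophagy and lysosome genes, 5.54% for the ubiquitin system and 10.3% for tubulins and microtubule motors. For proteasome genes it was 3.92%, and for all genes 4.25%. The list of proteasome genes had 5 of 51 (9.80%), of which 4 encode subunits. Its highest, Psme3ip1, encodes a partner of a proteasome activator, and Psmd9 (16.1) and Psmd4 (14.6) came after it. Chaperones had 8 of 93 (8.60%), with Hspa4 at 21.2 and Hspe1, the mitochondrial co-chaperonin, at 17.4. Autophagy and lysosome genes had 6 of 74 (8.11%), Map1lc3b highest at 11.2. Vesicle coats and tethers had 12 of 161 (7.45%), with Sec23ip at 31.6, and Rab, Arf, Arl and Rap GTPases had 7 of 98 (7.14%), with a median score of 20.03 and with Rap2a (25.7), Rab40c (23.5) and Rab3a (22.7), a GTPase of synaptic vesicles, in front. The ubiquitin system had 13 of 325 (4%), with Usp8 at 32.1. Tubulins and microtubule motors had 6 of 87 (6.90%), Tubb3 highest at 21.4.

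Mitochondrial import had 3 of 31 (9.68%), with Timm13 at 34.4 and Timm44 at 30.8, and oxidative phosphorylation had 5 of 98 (5.10%), with Ndufs1 at 19.9. Other promoter peaks were found at 16.1% of the import genes and 7.14% of the oxidative phosphorylation genes. Cell cycle and replication had 9 of 101 (8.91%), among them Ccnt1 (19.9), a partner of CDK9 in transcription, E2f4 (18.5), a repressor of cell-cycle genes, and Cdk4 (17.5), the kinase of G1 phase. Chromatin regulators had 5 of 97 (5.15%), with Smarca5 at 23.1, and DNA repair had 3 of 63 (4.76%), with Rad52 at 12.3. Other promoter peaks were found at 7.92% of cell cycle and replication genes, 8.25% of chromatin regulators and 7.94% of DNA repair genes. Shares near or under that of all genes were found for zinc finger proteins, 13 of 465 (2.80%), RNA polymerase and Mediator, 2 of 105 (1.90%), and solute carriers, 5 of 375 (1.33%). For other promoter peaks the shares were 5.16%, 13.3% and 4.53% in that order, beside 4.25% of all genes. Olfactory and vomeronasal receptors had 1 of 1459, Vmn2r29 at 4.94, and keratins and Hox genes had none of 53 and 39.

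Genes of the OL lineage are read against the same 2.58% of all genes. Of the 34 myelination genes 3 had such a peak (8.82%, exact interval 1.86 to 23.7): Sirt2 (52.3), Fth1 (21.2), the heavy chain of ferritin, and Cdc42 (10.3), a GTPase needed for myelin sheath formation. Another promoter peak was found at 7 of them and any peak at 23. Of 20 markers of mature OLs, such as Mbp, Mog and Cnp, none had a promoter peak with none of the 3 motifs, while 5 had another promoter peak and 13 had a peak of some kind. Of 36 regulators of the lineage 1 had one (2.78%), Olig2. The markers of precursors, astrocytes, microglia, endothelial and mural cells (10 each) and Schwann cells (8) had none, and of 10 neuronal markers Tubb3 had one. Where a list had none, the exact interval reached 16.8% (mature OLs), 30.8% (lists of 10) or 36.9% (Schwann cells). Lists this short cannot be told apart from the 2.58% of all genes.

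**Figure D5:**
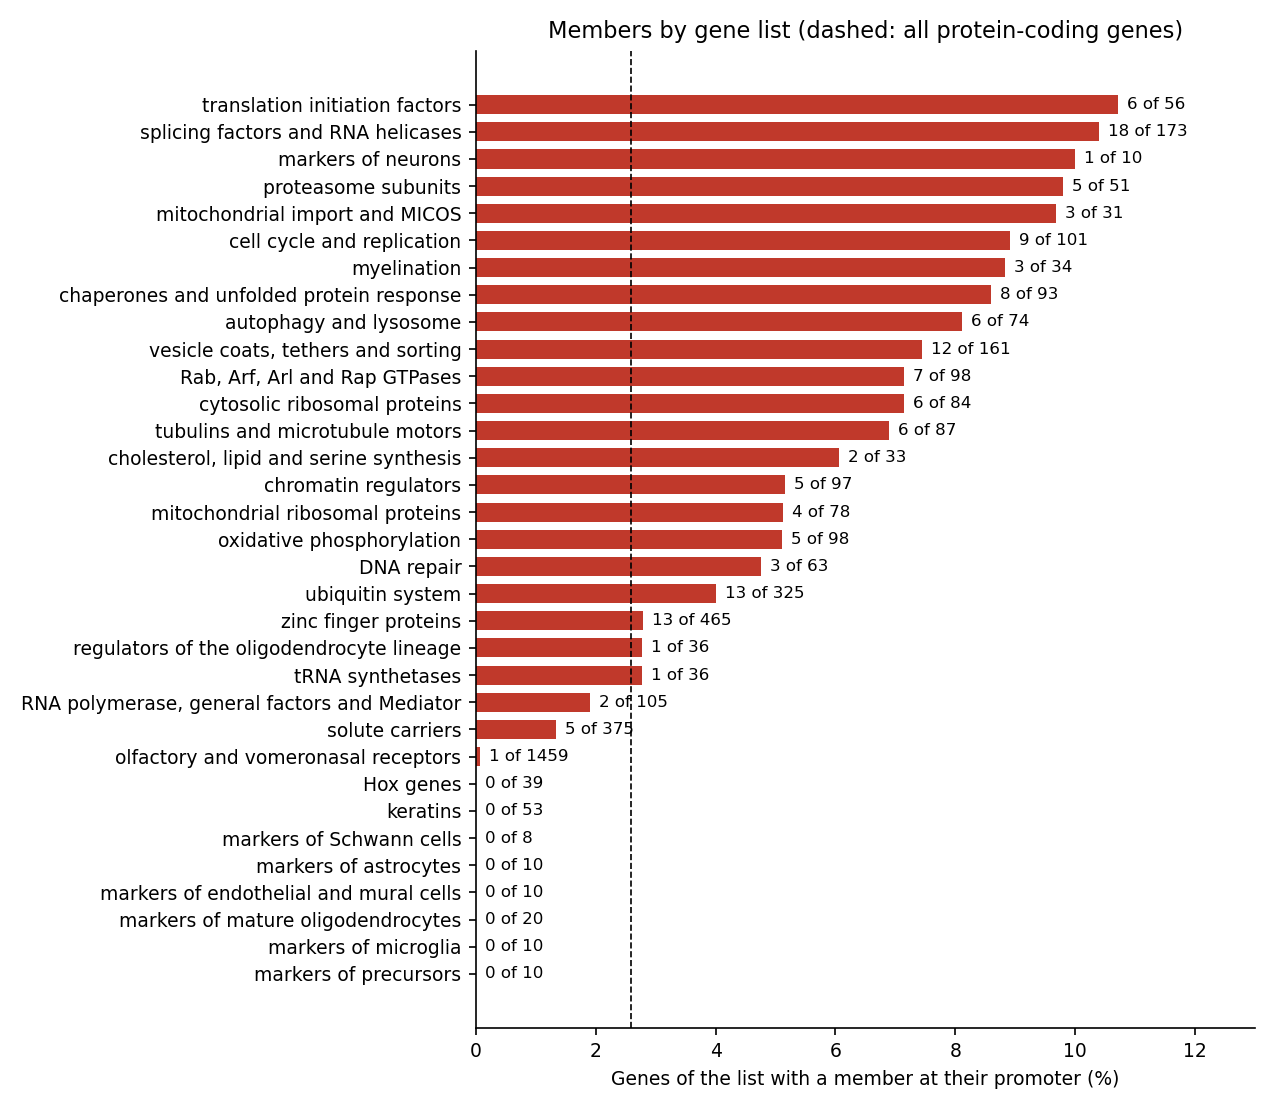
Percentage of the genes of each list that had a promoter peak with none of the 3 motifs, with the counts beside the bars and the share of all 21787 protein-coding genes, 2.58%, as a dashed line. Lists of RNA processing, translation, protein turnover and traffic lie to the right of the line, and the markers of cell types, apart from 1 neuronal gene, lie at 0. The marker lists are short, and their exact intervals all include 2.58%. Other promoter peaks are not drawn.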

How the data were processed

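Peaks of Olig2 ChIP-Seq in whole spinal cord were taken from the deposited list. The authors pooled their experiments, used BWA for alignment (mm10), MACS2 for peaks against Input Control and HOMER for annotation and motifs, as their methods and the submitters' processing notes state. The peak score was made by the authors with the peak caller and used as deposited, its scale not named. GC and CpG content, each a fraction of the 51 bp of a peak in the deposited list, were used as they stood and are given here as percentages. The depth behind each peak is unknown. Shares have 95% exact intervals (Clopper-Pearson) and odds ratios log-scale intervals, which cover only counting error.

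In GRCm38.p6, 4215 of 4215 peaks had the deposited GC and CpG content, and 7177 of 7177 hits were found at their place. All 565 peaks studied were matched to RefSeq genes by Entrez number, and 23 gene symbols differ from the deposited names. Promoter sequences are those of RefSeq (GRCm38.p6). Shares were compared by two-sided Fisher's exact tests over peaks, with Benjamini-Hochberg adjustment and a threshold of 0.05. These were tested on simulated data. The peaks and gene lists were chosen with earlier results of these data known. A second deposited table of repeated peaks was not used. Genes were named when among the 15 highest scores, the highest of a motif or list (up to 3), named in the paper, with 2 peaks, or lowest in score, apart from examples said to be chosen later and 1 gene that is not reported here. Alternatives changed the score limit, windows, definition of a promoter and the peaks used. The analysis used python 3.11.15 with numpy 2.4.6, pandas 2.3.3, scipy 1.17.1 and pysam 0.24.0, and samtools 1.23.1.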

Additional observations from a re-analysis of the deposited data

How the results depend on the processing

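No paired analysis was possible because the list comes from pooled experiments and each peak has a single value. Of the 163 odds ratios under alternative settings, 131 kept their direction and their side of the threshold. With a minimum score of 10 the class had 275 peaks, and with a minimum of 20 it had 90. Values below are odds ratios of promoter peaks with none of the 3 motifs over the named group, with two-sided Fisher's exact tests, and the cause of each change was not tested.

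Restricted to peaks with a score of at least 10, 5 differences were no longer called: high scores against the E-box motif (0.704), upstream position (0.718) and CpG-island-like flanks (1.63) against the CCAAT-like motif, closeness to the TSS against the ETS-like motif (0.676), and divergent promoters against the E-box motif (1.32). In the same setting, high scores against the CCAAT-like motif (1.05), upstream position against the ETS-like motif (0.899) and CAGCTG beside the peak against the E-box motif (1.02) changed direction without being called. With a score limit of 40, the difference from the E-box motif was 0.497 and no longer called (exact test, adjusted p = 0.108), and the ratios to the CCAAT-like (1.15) and ETS-like (0.673) groups changed direction, as did the ratio to the ETS-like group at a limit of 10 (0.924). With promoters defined by a distance within 1 kb, upstream position passed against the E-box motif (1.61) and was 0.997 against the ETS-like motif. Within 50 bp of the TSS the ratio to the CCAAT-like motif reversed and passed (1.52). Without peaks of the class that hold CANNTG, divergent promoters against the E-box motif (1.47) were not called. With stricter limits on all peaks, CpG-island-like flanks against the CCAAT-like motif were not called (1.24). Changes of direction without a call were found for CAGCTG to 500 bp against the ETS-like motif (0.914) and for another E-box peak within 10 kb against the E-box (0.778) and ETS-like (0.502) groups.

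The alternatives of this paragraph were chosen after seeing the data. Without peaks of the class that hold a motif under 60% G and C, upstream position passed against the E-box motif (1.54). High scores against the ETS-like motif were then 0.884 and closeness to the TSS against the CCAAT-like motif 1.01. The difference by GC content within the class was not called without Motif52 (0.552), nor was the difference from the E-box motif in the lower tertile of GC content (0.909).

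Within the class, at a score limit of 10, the ratio for Motif52 was 1.17 and not called, and ratios turned direction without a call for GCGCGTGC (1.13), ACTACATTTCCC (1.16), GCCTCCGCCT (1.12), CCGGCCAGGG (1.06), TGACGTCACGAG (0.972) and GGCTGGCCCAGC (1.28).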

Other observations

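Pooled over motifs, hits in the class did not gather at the centers of the peaks. Of 706 hits, 334 (47.3%, exact interval 43.6 to 51.1) lay within 10 bp of the center, and an even placement over the 51 bp gives 47.3%. Single motifs ran from 34.6% (Motif50, 45.5% under even placement) to 75% (Motif40, 16 hits, 50% under even placement). For hits of the E-box motif the share was 48.5% (44.8 to 52.3) in promoter peaks and 46.5% (44.8 to 48.1) in peaks outside promoters, with 45.5% under even placement. For hits of the ETS-like motif in promoter peaks it was 56.7% (48.8 to 64.4), an interval that includes the 50% of even placement. Genes with both a peak of the class and another promoter peak numbered 12, and 22 of the 565 peaks had some other peak within 500 bp.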
